A study of Mus musculus with 9 samples.

Results

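The 37 genes of the mouse mitochondrial genome were taken from a table of read counts for 52550 genes as every gene whose symbol starts with mt-. They comprise 13 mRNA genes, 2 rRNA genes and 22 tRNA genes. The counts came from haematopoietic stem cells, the marrow cells that give rise to all blood lineages, in 3 groups of 3 libraries. The young WT group was wild type and 2 months old. The old WT group was wild type and 22 to 24 months old. The old KO group was of that same age range and carried the Sphk2 allele that the labels give as B6N.129S6-Sphk2tm1Rlp/J and abbreviate as Sphk2 cKO. Sphk2 encodes sphingosine kinase 2, which phosphorylates sphingosine. The labels name no promoter, Cre line or further agent for any group. Per the labels' protocols, a library was made from 1000 cells sorted as Lin-, Sca1+, c-Kit+, CD48- and CD150+, with 13 cycles of amplification. The labels call the libraries of a group technical replicates and name no mouse, so p-values measure only the spread between these libraries, which may be technical.

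Mitochondrial DNA is a small circle, present in many copies per cell, whose genes are read from both strands as long precursor transcripts. The tRNAs lie between the other genes, and cutting them out releases the mRNAs and rRNAs. All 13 mRNAs encode subunits of the complexes that carry out oxidative phosphorylation (OXPHOS): 7 of complex I (NADH dehydrogenase), 1 of complex III (cytochrome bc1), 3 of complex IV (cytochrome c oxidase) and 2 of complex V (ATP synthase). The remaining subunits of these complexes, and the proteins that copy, transcribe and translate the mitochondrial genome, are encoded in the nucleus. Haematopoietic stem cells are known for relying little on oxidative phosphorylation while at rest.

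Libraries differed between groups before any gene was considered. Young WT libraries held 28088637 to 74021822 counts in genes, old WT libraries 3145167 to 5115003 and old KO libraries 11284847 to 17544945. The part of all counts that fell outside annotated genes was 6.51% to 12.5% for young WT, 80.8% to 87.7% for old WT and 45.0% to 61.9% for old KO. Read density over olfactory receptor genes, which serve as silent genes here, was 1.30 ± 0.159 per kb for young WT, 8.81 ± 2.71 for old WT and 6.64 ± 0.902 for old KO (SD, n = 3). This density is in raw counts and is not scaled to gene counts, so relative to gene counts the groups lie further apart. This density was taken as each library's background. A gene was above it where it had 20 counts or more and its count was 5 or more times that expected from the density. Both limits use raw counts, so they are harder to pass with fewer gene counts or a higher density. Of 6 markers of the sorted cells (Kit, Ly6a, Slamf1, Procr, Hlf and Mecom), 5 to 6 were above background in young WT, 0 to 2 in old WT, versus 4 to 6 in old KO libraries. Their summed level was 780 to 1148, 90.6 to 1822 and 566 to 1860.1 counts per 1000000 gene counts (CPM) in the same order. Of 6 erythroid markers, 4 to 5 were above background in young WT and 0 in every old library, with summed levels of 116 to 442 CPM in young WT, 18.4 to 28.4 CPM in old WT, compared with 3.36 to 6.03 CPM in old KO. Summed levels in the same order were 384 to 846, 129 to 432 and 274 to 608 CPM for 6 megakaryocyte markers, and 76.9 to 163, 48.3 to 97.4 and 10.7 to 17.4 CPM for 6 lymphoid markers. For 6 myeloid markers they were 2.20 to 112 CPM in young WT, 28.5 to 636 in old WT, versus 3.19 to 79.9 in old KO. Old WT library 3 stood apart with these 636 CPM, of which S100a8 made up 541, beside 28.5 and 32.7 CPM in the other old WT libraries, and the part of these markers in the results was not tested. Sphk2 itself had 88 to 1684 counts in young WT, 1 to 35 in old WT, against 8 to 23 in old KO. It was not above background in any of the 6 old libraries and so did not separate old KO from old WT. Age and the makeup of the libraries moved together and cannot be told apart in this design. Among the old groups the same holds for genotype and the makeup of the libraries. In bulk samples, fewer cells of a type and less RNA per cell cannot be told apart either.

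Some mitochondrial genes have an identical copy among annotated nuclear transcripts, which bears on their counts below. Sequences were read from the GENCODE M21 transcripts of the GRCm38 (mm10) assembly. On chromosome 1, between bases 24611535 and 24616197 on the minus strand, 7 annotated unprocessed pseudogenes copy a stretch of the mitochondrial genome. The copies of mt-Co2 (Gm28661), mt-Atp6 (Gm10925), mt-Co3 (Gm28437), mt-Nd3 (Gm28438), mt-Nd4l (Gm10222) and the first 876 bases of mt-Nd4 (Gm28439) were 100% identical over their aligned bases. The copy of the end of mt-Co1 (Gm29216, aligned to gene bases 1063 to 1545) differed at 1 base, A1066T, counted from 1 at the first base of mt-Co1. The first 90 bases of mt-Co2 (complex IV subunit 2, chrM:7013-7102, plus strand) and those of its copy Gm28661 (chr1:24615476-24615565, minus strand) are shown to make this identity visible. All letters are in lower case because no base differs.
mt-Co2: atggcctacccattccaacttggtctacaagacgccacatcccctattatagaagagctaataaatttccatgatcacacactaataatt
Gm28661: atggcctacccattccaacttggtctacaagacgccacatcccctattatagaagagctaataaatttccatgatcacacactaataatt
A read of 150 bases from either place is the same read. An older copy on chromosome 2 can be told from the gene. Gm13341 matched mt-Co2 at 97.6% of 672 aligned bases, with 16 mismatches, and Gm13340 matched mt-Co1 at 97.6% of 1545 aligned bases, with 37 mismatches. A window of mt-Co2 (chrM:7459-7548, plus strand) and the matching window of Gm13341 (chr2:22587439-22587528, minus strand) show the difference, with the differing bases in capitals.
mt-Co2: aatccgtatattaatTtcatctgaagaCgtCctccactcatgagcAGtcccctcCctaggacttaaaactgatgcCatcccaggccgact
Gm13341: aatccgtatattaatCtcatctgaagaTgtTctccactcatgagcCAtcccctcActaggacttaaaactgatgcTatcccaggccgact
In this window the substitutions from gene to copy were T462C, C474T, C477T, A492C, G493A, C501A and C522T, counted from the first base of mt-Co2.

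The share of all 150-base windows of a gene that occur unchanged in another annotated transcript was 99.4% for mt-Co2, 99.4% for mt-Atp6, 99.8% for mt-Co3, 97.0% for mt-Nd3, 98.0% for mt-Nd4l, 59.2% for mt-Nd4 and 23.6% for mt-Co1. It was 0 for mt-Nd1, mt-Nd2, mt-Nd5, mt-Nd6, mt-Cytb, mt-Atp8 and both rRNAs. For mt-Atp8 this 0 does not show that the gene has no copy. The chromosome 1 sequence between Gm28661 and Gm10925, where its copy would lie, was not searched. With windows of 50 bases it was 62.2% for mt-Nd4, 51.1% for mt-Co1, 8.19% for mt-Nd2, 7.61% for mt-Nd5 and 1.04% for mt-Rnr2. Nuclear sequence outside annotated transcripts was not searched. How reads that map to several places were counted is not given in the sources used here. The counts of the 5 genes copied over nearly their whole length are therefore uncertain, and so is their split with the copies. For mt-Nd4 and mt-Co1 the same holds over their copied parts. For mt-Co2 the table held 741, 352 and 214 counts in young WT, 187, 89 and 76 in old WT, versus 103, 147 and 205 in old KO. Its identical copy Gm28661 held 862, 348 and 206, then 206, 127 and 120, then 140, 153 and 280. For mt-Co2 there were between 0.633 and 1.04 counts of the gene per count of the copy over the 9 libraries. The other identical copies differed in this ratio, with 0.797 to 1.19 for mt-Atp6, 1.54 to 3.70 for mt-Co3, 8.13 to 50.7 for mt-Nd4l and 59.2 to 142 for mt-Nd3. The 7 copies on chromosome 1 together reached 39.2 to 69.9 CPM in young WT, 108 to 121 CPM in old WT, compared with 50.6 to 72.0 CPM in old KO.

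Levels were compared between genes per length. On the CPM per kb scale, mt-Co1 (complex IV subunit 1, which holds the oxygen-reducing site) was highest in young WT at 5828 ± 1129, followed by mt-Cytb (cytochrome b of complex III) at 5198 ± 1572. The complex I subunits mt-Nd4, mt-Nd1, mt-Nd2, mt-Nd6 and mt-Nd5 followed at 3113 ± 1110, 2959 ± 408, 1718 ± 377, 1244 ± 109 and 956 ± 90.3 CPM per kb (SD, n = 3 for each). Neighbours in this order often did not differ beyond their spread: the ranges of mt-Co1 and mt-Cytb overlapped, as did those of mt-Nd4 and mt-Nd1. The rRNAs, mt-Rnr2 (large subunit) and mt-Rnr1 (small subunit), came next at 946 ± 83.2 and 551 ± 111 CPM per kb. The 5 genes copied over nearly their whole length stood far lower, with mt-Nd3 at 156 ± 32.7, mt-Nd4l at 38.6 ± 10.8, mt-Co3 at 36.7 ± 4.94, mt-Atp6 at 19.97 ± 5.69 and mt-Co2 at 14.3 ± 4.13 CPM per kb.

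**Figure D1:**
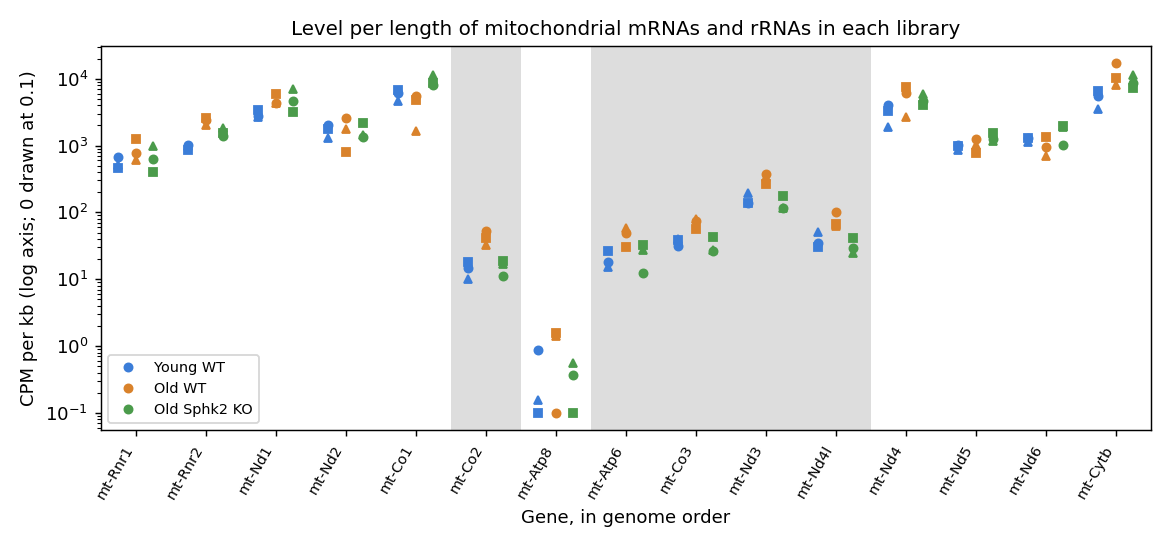
Level of each mitochondrial mRNA and rRNA in each of the 9 libraries, as CPM per kb of gene on a log axis, with genes in genome order, colours for groups and marker shapes for library 1 (circle), 2 (square) and 3 (triangle). Grey marks the 5 genes with over 90% of 150-base windows copied in another annotated transcript. Apart from mt-Atp8, which held 0 to 13 counts and was searched for in annotated transcripts only, they are the lowest.

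mt-Co1 and mt-Co2 encode subunits of the same enzyme and lie next to each other, yet mt-Co1 had 415, 372 and 456 times the counts per kb of mt-Co2 in young WT. The ratio was 102, 117 and 50.5 in old WT, against 710, 457 and 672 in old KO. mt-Nd4 and mt-Nd4l are known to share a messenger, and mt-Nd4 had 37.6 to 119 times the counts per kb of mt-Nd4l in young WT, 41.7 to 112 in old WT, versus 97.7 to 244 in old KO. mt-Atp8, a small complex V subunit, held 13, 0 and 1 counts in young WT, 0, 1 and 1 in old WT, compared with 1, 0 and 2 in old KO. It is the only mRNA that was not above background in any library. Its gene (chrM:7766-7969) ends inside mt-Atp6 (chrM:7927-8607), and the 43 bases they share, chrM:7927-7969 on the plus strand, are given because reads over them belong to both genes.
mt-Atp8 and mt-Atp6: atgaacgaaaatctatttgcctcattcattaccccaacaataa
These shared bases are part of the stretch copied in Gm10925, and the rest of mt-Atp8 lies between the stretches copied in Gm28661 and Gm10925. The other 12 mRNAs and both rRNAs were above background in all 9 libraries. This background was measured over nuclear genes. Stray reads from mitochondrial DNA, which has many copies per cell, may exceed it and were not measured. The 7 mRNAs mt-Co1, mt-Cytb, mt-Nd1, mt-Nd2, mt-Nd4, mt-Nd5 and mt-Nd6 held 98.9% to 99.8% of mitochondrial mRNA counts in every library, so the account of mRNAs below rests on them.

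Mitochondrial genes took a few percent of all gene counts in each group. Their share was 3.09%, 3.23% and 2.20% in young WT libraries, 5.07%, 4.39% and 2.77% in old WT, against 3.99%, 3.93% and 5.43% in old KO. Every old KO library was above every young WT library, while old WT overlapped both other groups. The means were 2.84% ± 0.556, 4.08% ± 1.18 and 4.45% ± 0.852 (SD, n = 3). In 2-sided exact permutation tests, p was 0.3 for old WT against young WT, 0.8 between the old groups and 0.1 for old KO against young WT. With 3 libraries against 3, 0.1 is the smallest p possible, and over the 12 share tests the adjusted values were 0.36, 0.8 and 0.171. Counting error was small beside this spread: the 95% Wilson interval of young WT library 3 ran from 2.20% to 2.21%, and it covers counting error only. When reads outside genes were added to the total, the shares became 2.40% ± 0.514 in young WT, 0.658% ± 0.290 in old WT, versus 1.96% ± 0.758 in old KO. On that denominator every old WT library was below every young WT library, which turns the direction of the ageing comparison. With background removed, the means were 2.85% ± 0.556 in young WT, 5.23% ± 1.14 in old WT, compared with 4.68% ± 0.811 in old KO. That background is the density over nuclear genes and does not account for stray reads from mitochondrial DNA.

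The 13 mRNAs made up most of this share, at 2.64% ± 0.560 in young WT, 3.62% ± 1.13 in old WT, against 4.13% ± 0.791 in old KO. The rRNAs, which form the core of the mitochondrial ribosome, took 0.224%, 0.179% and 0.203% in young WT libraries, 0.453%, 0.526% and 0.380% in old WT, versus 0.279%, 0.279% and 0.385% in old KO. Every old library was above every young library in rRNA share (exact permutation p = 0.1 for either old group, adjusted p = 0.171). Of all single genes tested, 65% were likewise higher in CPM in old WT and 53.5% in old KO, without overlap with young WT. Old WT and old KO overlapped (exact permutation p = 0.2, adjusted p = 0.3).

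**Figure D2:**
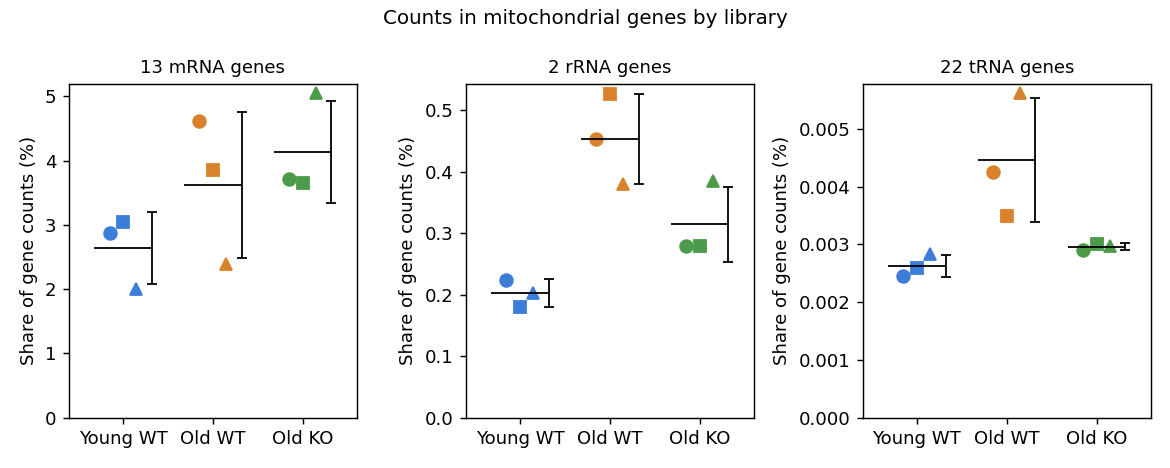
Share of gene counts in the mitochondrial mRNAs, rRNAs and tRNAs in percent, with 1 point per library (circle, square and triangle for libraries 1 to 3), a line at the mean and a bar for the SD of 3 libraries. The rRNA share of the 3 old WT libraries sits between 0.380% and 0.526%, above the 0.179% to 0.224% of young WT.

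Groups also differed within the mitochondrial mRNAs, in the balance of complex IV and complex III. Complex IV, nearly all of it mt-Co1, made up 32.8%, 34.7% and 35.8% of mitochondrial mRNA counts in young WT and 33.2%, 37.1% and 35.2% in old KO. In old WT it made up 18.6%, 19.6% and 10.9%, so that all 3 old WT libraries were below all 6 others. Complex III, which is mt-Cytb alone, made up 21.8%, 24.9% and 20.1% in young WT libraries, 42.0%, 30.8% and 38.6% in old WT, compared with 26.5%, 22.4% and 26.0% in old KO. Here all 3 old WT libraries were above all 6 others. The complex IV means were 34.4% ± 1.48, 16.3% ± 4.75 and 35.2% ± 1.94 for young WT, old WT and old KO, and the complex III means were 22.3% ± 2.42, 37.1% ± 5.74 and 25.0% ± 2.24 (SD, n = 3). Exact permutation p was 0.1, the smallest possible, for old WT against either other group in both complexes, and 0.3 after adjustment over 12 tests. For old KO against young WT it was 0.7 for complex IV and 0.2 for complex III. These are shares of one total, so a lower share of one complex raises the others, and they do not depend on how libraries are scaled to each other. Leaving out any 1 library kept the old WT complex IV share between 15.4 and 19.7 percentage points below that of young WT, and without old WT library 3 the difference was -15.4. Old WT was also the group with the fewest gene counts and the most reads outside genes. The part of this in the balance of the complexes cannot be told apart from age or genotype.

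**Figure D3:**
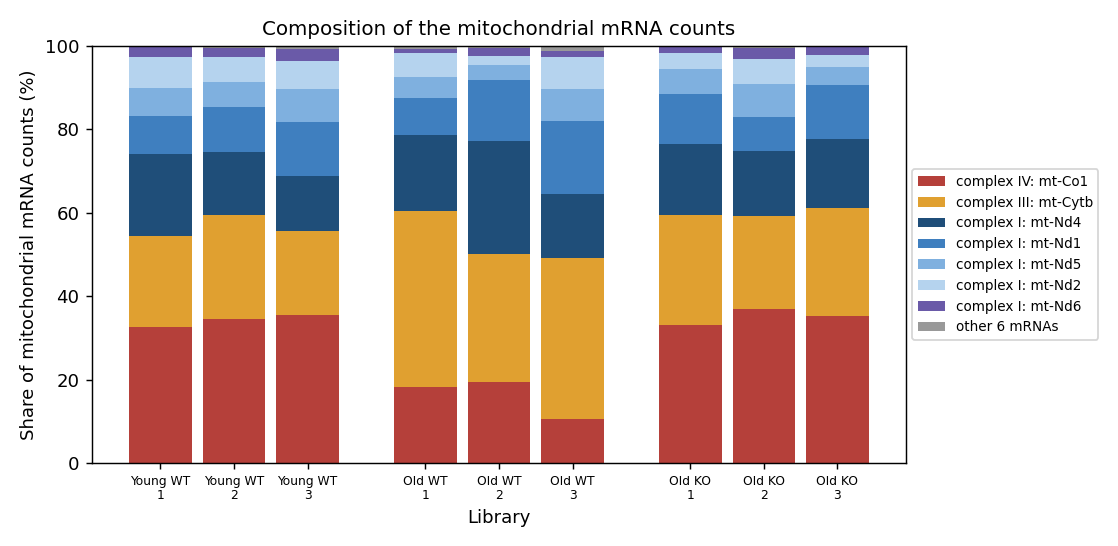
Composition of the mitochondrial mRNA counts in each library, as stacked bars that add to 100%, with the 6 genes of very low count pooled. mt-Co1 (red) takes 10.5% to 19.4% in old WT and 32.7% to 36.9% in the other libraries, and mt-Cytb (yellow) takes 30.8% to 42.0% in old WT.

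The ratio of mt-Co1 to mt-Cytb counts gives the same pattern in 1 number per library. It was 1.503, 1.39 and 1.77 in young WT libraries, 0.437, 0.629 and 0.272 in old WT, against 1.25, 1.65 and 1.35 in old KO. mt-Co1 outnumbered mt-Cytb in 6 of 6 young WT and old KO libraries and in 0 of 3 old WT libraries. This ratio was chosen after the values were seen and is given with no test. By level, mt-Cytb was at 5455, 6625 and 3513 CPM per kb in young WT, 16922, 10397 and 8064 in old WT, versus 8579, 7138 and 11483 in old KO. All 6 old libraries were above young WT. Such a rise without overlap was seen in 65% of all genes tested for old WT and in 53.5% for old KO. mt-Co1 was at 6070, 6816 and 4598 CPM per kb in young WT, 5476, 4843 and 1627 in old WT, compared with 7941, 8710 and 11486 in old KO. All 3 old KO libraries were above the other 6, and old WT overlapped young WT. In old WT, mt-Co1 accordingly ranked 4th by level, behind mt-Cytb, mt-Nd4 and mt-Nd1, while it ranked 1st in young WT and old KO.

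In complex I, the entry point of electrons from NADH, the groups overlapped. Its 7 genes made up 43.2% ± 2.61 of mitochondrial mRNA counts in young WT, 46.4% ± 6.10 in old WT, against 39.8% ± 0.999 in old KO (exact permutation p between 0.2 and 0.5 for the 3 pairs, SD, n = 3). Of its members, mt-Nd1 lay at 2709 to 3429 CPM per kb in young WT, 4324 to 5901 in old WT, versus 3142 to 6926 in old KO. mt-Nd1 in old WT did not overlap young WT, where 65% of all genes tested were likewise higher. mt-Nd4 lay at 1909 to 4094, 2644 to 7568 and 4083 to 5994 CPM per kb in the same order, and mt-Nd2 at 1311 to 2055, 799 to 2578 and 1344 to 2136. Both overlapped between all groups. mt-Nd5 lay at 854 to 1025 CPM per kb in young WT, 779 to 1254 in old WT, compared with 1164 to 1551 in old KO, and old KO was above young WT in all libraries. The same held for 53.5% of all genes tested.

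mt-Nd6 is the only mRNA encoded on the opposite strand from the rest. It lay at 1119 to 1319 CPM per kb in young WT, 701 to 1338 in old WT, against 1031 to 1929 in old KO, and the 3 groups overlapped. Per 100 counts of the other 12 mRNAs it had 2.40, 2.30 and 2.99 counts in young WT, 1.09, 1.83 and 1.55 in old WT, versus 1.47, 2.82 and 1.98 in old KO. Old WT was below young WT in all libraries on this ratio, and old KO overlapped both. The strand setting of the counting is not given in the sources used here, so reads from the opposite strand over mt-Nd6 cannot be separated. Complex V, nearly all of it mt-Atp6, made up 0.044%, 0.059% and 0.052% of mitochondrial mRNA counts in young WT libraries, 0.072%, 0.054% and 0.165% in old WT, against 0.023%, 0.061% and 0.038% in old KO. Its groups overlapped, and without old WT library 3 the old WT mean went from 0.097% to 0.063%.

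Among the rRNAs, mt-Rnr2 lay at 851 to 1010 CPM per kb in young WT, 2032 to 2568 in old WT, compared with 1388 to 1845 in old KO, and no 2 groups overlapped. Many genes did the same: of all tested, 65% were higher without overlap in old WT than in young WT. For old KO, 53.5% were higher than in young WT and 48.8% lower than in old WT. mt-Rnr1 lay at 468 to 677, 613 to 1251 and 402 to 971 CPM per kb, and the groups overlapped. Relative to mRNAs, the rRNAs had 7.83, 5.89 and 10.2 counts per 100 mRNA counts in young WT, 9.83, 13.6 and 15.9 in old WT, against 7.52, 7.66 and 7.62 in old KO. Old WT overlapped young WT and was above old KO in all libraries.

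The 22 tRNAs together held 1817, 726 and 878 counts in young WT, 218, 110 and 194 in old WT, versus 391, 340 and 522 in old KO. That was at most 0.0057% of gene counts in any library, and a library lacked any count for 9 to 11 tRNAs in young WT, 15 to 16 in old WT, compared with 12 to 15 in old KO. By counting error alone, a count of 0 allows up to 4.05e-06% of gene counts in the deepest library and 9.54e-05% in the shallowest. It sets no limit on the amount of the tRNA itself. Reads were longer than any tRNA gene, and most of these genes touch, overlap or lie within a few bases of a neighbour. A read over such a gene may therefore not have been counted to it. The part of this in the order of tRNAs by count was not tested. Most tRNA counts came from 1 gene, mt-Tp, the proline tRNA, which lies on the minus strand beside the non-coding control region. mt-Tp had 1635, 599 and 720 counts in young WT, 186, 84 and 172 in old WT, against 351, 290 and 462 in old KO, between 76.4% and 89.98% of all tRNA counts. mt-Tf, the phenylalanine tRNA at the other edge of that region, followed in young WT with 114, 58 and 113 counts, and had 13, 7 and 11 in old WT, versus 21, 22 and 33 in old KO. These are the tRNA genes on either side of the control region. Both sequences are given as RNA sense, for mt-Tp from chrM:15356-15422 (minus strand) and for mt-Tf from chrM:1-68 (plus strand).
mt-Tp: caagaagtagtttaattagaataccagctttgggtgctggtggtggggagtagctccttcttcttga
mt-Tf: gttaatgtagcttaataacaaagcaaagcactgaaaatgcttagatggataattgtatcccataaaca
mt-Tn and mt-Tc, tRNAs for asparagine and cysteine, had 0 to 33 and 2 to 23 counts over the 9 libraries, and each of the other 18 had at most 8 counts in any library.

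Tests on all genes covered 32582 genes and 18 of the 37 members: 12 mRNAs (all but mt-Atp8), both rRNAs and 4 tRNAs (mt-Tf, mt-Tn, mt-Tc and mt-Tp). Because these passed a filter on low counts, they are not a sample of all members. In old WT against young WT, edgeR's quasi-likelihood test with TMM factors called 14 of the 18 lower and 0 higher at an adjusted p under 0.05, where 18.4% of all genes tested were lower and 18.6% higher. With total gene counts as the scale, it called 0 lower and 1 higher, where 3.43% of all genes were lower and 68.5% higher. The median log2 fold change of the 18 was -3.12 with TMM factors, beside 1.37 for all genes, and 0.89 with total counts, beside 5.32 for all genes. The median shift of a gene's log2 fold change from total counts to TMM factors was -3.92, and 16 of the 18 members, all but mt-Co1 and mt-Nd6, turned from above 0 to below 0. On both scales the median of the members lay below that of all genes, but at 10 CPM in 3 libraries it lay above, at -1.18 beside -1.93. With background removed it was 1.31 beside -2.09, and edgeR called 0 members, where 0.0816% of genes were higher and 0.0583% lower. The TMM factors were 0.172 to 0.331 in young WT, 3.20 to 5.45 in old WT, compared with 0.725 to 1.37 in old KO.

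The called genes with TMM factors were 9 mRNAs, both rRNAs, mt-Tf, mt-Tc and mt-Tp. mt-Co1 was the lowest, with a log2 fold change of -4.44 ± 0.85 (SE; adjusted p = 0.00588), against -0.53 ± 0.53 with total counts (adjusted p = 0.385). mt-Cytb was at -2.76 ± 0.77 (adjusted p = 0.0180) with TMM factors, but rose by 1.20 ± 0.51 with total counts (adjusted p = 0.0428). mt-Rnr2 went from -2.71 ± 0.83 (adjusted p = 0.0251) to 1.32 ± 0.60 (adjusted p = 0.0557). mt-Nd1 went from -3.23 ± 0.83 to 0.74 ± 0.57, and mt-Nd2 from -4.09 ± 0.90 to 0.02 ± 0.68. mt-Nd6 was at -4.26 ± 1.00 and -0.30 ± 0.76. mt-Co1 and mt-Nd6 were the lowest members on both scales. Leaving out young WT library 1 cut the TMM calls from 14 to 5, and leaving out old WT library 1, 2 or 3 to 7, 9 or 6. When libraries were scaled to their 13 mitochondrial mRNAs, mt-Co1 was lower by this test (-1.09 ± 0.50, adjusted p = 0.0491, with 4% of all genes lower and 66.4% higher), and no other member was called.

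**Figure D4:**
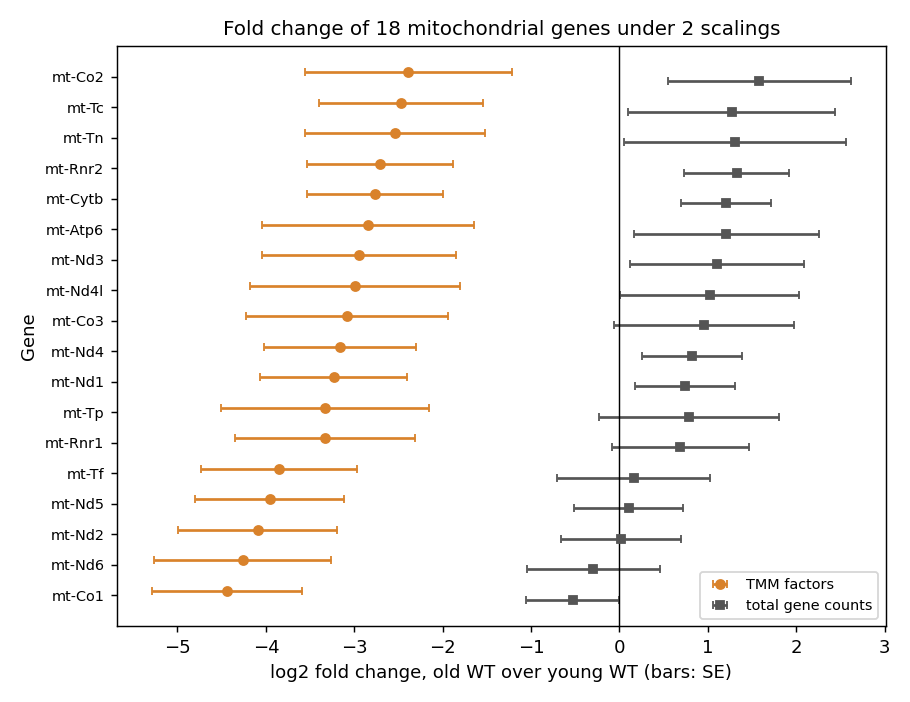
Log2 fold change of old WT over young WT for the 18 tested mitochondrial genes, with the SE as bars, under TMM factors (orange circles) and total gene counts (grey squares). All 18 lie below 0 with TMM factors and 16 lie above 0 with total counts, the exceptions being mt-Co1 and mt-Nd6.

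In old KO against old WT, no member was called in either direction with TMM factors (0.457% of all genes were higher and 0% lower) or with total counts (0.00614% higher and 0% lower). At an unadjusted p under 0.05, the edgeR test with TMM factors had 5 of the 18 higher and 0 lower, where 9.63% of all genes were higher and 2.19% lower. limma-voom called 0 at its adjusted threshold, and DESeq2 called 3 higher at its adjusted threshold (mt-Co1, mt-Nd5 and mt-Nd6), where it called 22.2% of genes with an adjusted p higher and 1.65% lower. mt-Co1 had the largest difference, 3.10 ± 0.80 with TMM factors (adjusted p = 0.105), 1.22 ± 0.53 with total counts (adjusted p = 0.159) and 1.12 ± 0.50 scaled to the mitochondrial mRNAs (adjusted p = 0.172). It was called with TMM factors when genes were kept only at 10 CPM or more in 3 libraries (2.45 ± 0.54, adjusted p = 0.0362, with 2.84% of genes higher and 0.0498% lower), and by DESeq2 (2.68 ± 0.83, adjusted p = 0.00863). mt-Cytb was at 1.57 ± 0.74 with TMM factors (adjusted p = 0.424) and -0.40 ± 0.50 with total counts (adjusted p = 0.517), so its direction turned with the scale. mt-Nd6 was at 2.57 ± 0.93 and 0.68 ± 0.76 (adjusted p = 0.249 and 0.465). The median of the 18 was 1.43 beside -0.04 for all genes with TMM factors, and -0.56 beside -1.93 with total counts. With background removed the order turned, at -0.42 for the members beside 1.01.

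In old KO against young WT, no member was called with TMM factors (6.91% of all genes were higher and 5.84% lower) or with total counts (52.7% higher and 3.92% lower). At an unadjusted p under 0.05, 5 of the 18 were lower and 0 higher in the edgeR test with TMM factors, where 15.3% of all genes were lower and 25.5% higher. limma-voom called 0 at its adjusted threshold, and DESeq2 called 12 lower, where it called 15% of genes lower and 15.7% higher. mt-Co1 was at -1.34 ± 0.75 with TMM factors (adjusted p = 0.176) and 0.69 ± 0.53 with total counts (adjusted p = 0.266). mt-Cytb was at -1.20 ± 0.73 (adjusted p = 0.211) and 0.81 ± 0.50 (adjusted p = 0.174). The comparisons of old KO with young WT and of old WT with young WT share the young WT libraries, and both knockout comparisons share the old KO libraries, so their values are not independent.

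As CPM ranges, 7 of 13 mRNAs were higher in every old WT than every young WT library, and 0 were lower, where 65% of all genes tested were higher and 5.87% lower. Of these, mt-Co2, mt-Atp6, mt-Co3, mt-Nd3 and mt-Nd4l have an identical nuclear copy and uncertain counts, and mt-Nd1 and mt-Cytb do not. Between old KO and old WT, 1 mRNA was higher (mt-Co1) and 4 lower (mt-Co2, mt-Co3, mt-Nd3 and mt-Nd4l), where 1.91% of genes were higher and 48.8% lower. All 4 lower ones belong to the genes with an identical nuclear copy. Between old KO and young WT, 3 mRNAs were higher (mt-Co1, mt-Cytb and mt-Nd5) and 0 lower, beside 53.5% and 4.06% of genes.

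Fewer of the nuclear partners of these genes were above background in old WT than in the other libraries. Of 75 nuclear genes for subunits of complexes I, III, IV and V, 74 to 75 were above background in young WT, 12 to 25 in old WT, against 53 to 61 in old KO. The rule uses raw counts, and old WT had the fewest gene counts and the highest mean background density. The share of all genes above background is not given, so these counts do not set the 75 apart from other genes. In old WT against young WT, 58 of 75 were lower and 0 higher with TMM factors, with a median log2 fold change of -5.76, and 22 were lower and 0 higher with total counts, with a median of -1.84. Over all genes the shares lower and higher were 18.4% and 18.6% with TMM factors, and 3.43% and 68.5% with total counts. With background removed 0 of the 75 were called, with a median of -1.48. By complex, with TMM factors, 28 of 37 were lower in complex I, 8 of 9 in complex III, 10 of 11 in complex IV and 12 of 18 in complex V. Cox4i1, a nuclear subunit of complex IV, had levels in CPM of 188, 379 and 149 in young WT libraries, 218, 133 and 66.1 in old WT, versus 188, 132 and 232 in old KO. Its groups overlapped, and its log2 fold change in old WT against young WT was -4.59 ± 1.15 with TMM factors (adjusted p = 0.0130) but -0.76 ± 0.94 with total counts (adjusted p = 0.487). Between the old groups, TMM factors gave 3 of the 75 as higher in old KO, among them Ndufa10 of complex I (6.53 ± 1.31, adjusted p = 0.0423), and 0 with total counts. Over all genes 0.457% and 0.00614% were higher on these scales. Against young WT, 8 were lower in old KO with TMM factors and 6 with total counts, where 5.84% and 3.92% of all genes were lower.

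The ratio of mitochondrial mRNA counts to the summed counts of these 75 nuclear genes was 3.04, 2.87 and 2.43 in young WT libraries, 4.58, 8.50 and 9.11 in old WT, against 5.58, 5.03 and 8.81 in old KO. Every old library was above every young library, and the 2 old groups overlapped in this ratio. On the log2 scale the means were 1.47 ± 0.17, 2.82 ± 0.55 and 2.65 ± 0.43 (SD, n = 3), with an exact permutation p of 0.1 for either old group against young WT (adjusted p = 0.15) and 0.9 between the old groups. As the mean log2 CPM of the mRNAs minus that of the nuclear genes, which weights genes equally, the old groups did not overlap. This mean takes in all 13 mRNAs, among them mt-Atp8 and the genes of uncertain count copied over nearly their whole length. Of the 75 nuclear genes, only 12 to 25 were above background in old WT, against 53 to 61 in old KO. On that measure the means were 1.70 ± 0.24 in young WT, 4.33 ± 0.05 in old WT, compared with 3.13 ± 0.21 in old KO, so that old KO minus old WT was -1.20 (exact permutation p = 0.1) and old WT minus young WT was 2.62 (exact permutation p = 0.1). The nuclear genes took 0.942% ± 0.119 of gene counts in young WT, 0.574% ± 0.386 in old WT, versus 0.654% ± 0.0767 in old KO. Library makeup moved with this ratio too, and its part in the ratio was not tested beyond removing the background measured over nuclear genes. That removal left the difference between old WT and young WT at 1.49 beside 1.35.

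**Figure D5:**
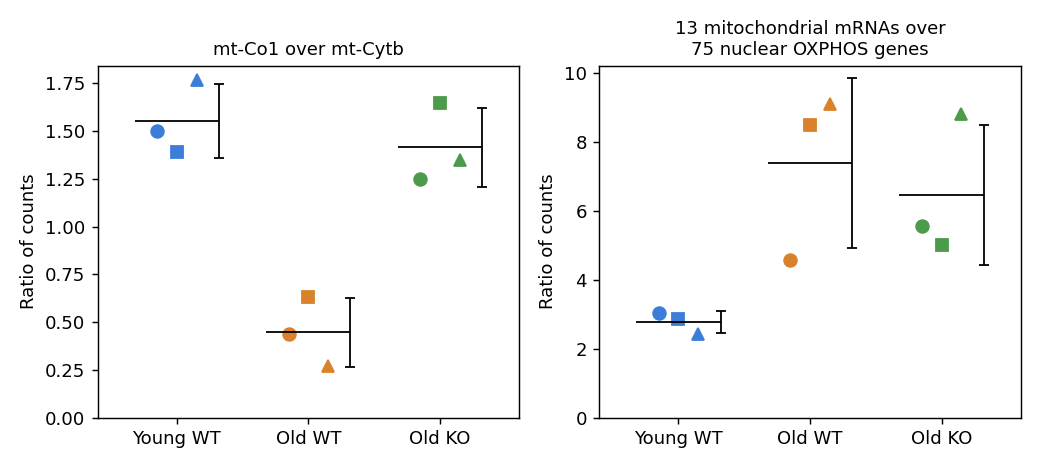
Ratio of mt-Co1 to mt-Cytb counts (left) and of the 13 mitochondrial mRNAs to 75 nuclear OXPHOS genes (right), with 1 point per library (circle, square and triangle for libraries 1 to 3), a line at the mean and a bar for the SD of 3 libraries. On the left old WT stands below both other groups, and on the right both old groups stand above young WT.

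Libraries of the same group also varied among themselves. The highest of the 3 libraries of a group had a median of 1.45 times the level of the lowest in young WT, 2.04 in old WT, compared with 1.59 in old KO over 9 mitochondrial genes (7 mRNAs and 2 rRNAs, as CPM plus 1). Over the 75 nuclear genes it was 2.29, 5.17 and 5.66 times. These values are a description with no test, and the part that the number of counts has in them was not tested.

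Genes that serve the mitochondrial genome were tested as 4 lists in old WT against young WT, where the shares over all genes were again 18.4% lower and 18.6% higher with TMM factors, and 3.43% and 68.5% with total counts. Of 76 tested mitochondrial ribosomal protein genes, 59 were lower and 0 higher with TMM factors, and 16 lower and 2 higher with total counts. Of 20 tested genes of mitochondrial RNA processing and stability, 14 were lower and 0 higher with TMM factors, and 1 lower and 1 higher with total counts. Of 17 genes of mitochondrial DNA replication and transcription, 8 were lower and 1 higher with TMM factors, and 0 lower and 5 higher with total counts. Of 14 translation factors, 5 were lower and 0 higher, and with total counts 0 lower and 3 higher. With background removed, 0 genes of the 4 lists were called. Over the 4 genes of highest mean level in each of these lists and of the 4 nuclear OXPHOS lists, 24 of 32 were lower with TMM factors, 5 with total counts and 0 with background removed, and 0 were higher. Polrmt, the RNA polymerase of mitochondria, had levels in CPM of 35.6, 39.5 and 199 in young WT libraries, 20.5, 11.4 and 14.2 in old WT, against 1.04, 17.8 and 2.74 in old KO. All 6 old libraries were below young WT. Such a fall without overlap was seen in 5.87% of all genes tested for old WT, beside 4.06% for old KO. The 1.04 CPM of Polrmt in old KO library 1 stand for few counts. Its log2 fold change for old WT against young WT was -6.51 ± 1.52 with TMM factors (adjusted p = 0.0101) and -2.55 ± 1.30 with total counts (adjusted p = 0.0898). Tfam, which packages mitochondrial DNA and starts its transcription, had 0.716, 85.5 and 79.6 CPM in young WT, while old WT libraries had 5.28 to 15.95 CPM (-5.95 ± 1.75, adjusted p = 0.0217, with TMM factors and -2.16 ± 1.43, adjusted p = 0.187, with total counts), and its groups overlapped. Ssbp1, which binds single-stranded mitochondrial DNA, was at -4.72 ± 1.48 (adjusted p = 0.0270) and -0.90 ± 1.27 (adjusted p = 0.545) on these scales. Mgme1, a nuclease of mitochondrial DNA, went the other way in level, with 118, 230 and 8.70 CPM in old WT beside 0.014, 24.7 and 6.54 in young WT libraries. It was at 0.10 ± 1.59 with TMM factors (adjusted p = 0.957) and 3.53 ± 1.68 with total counts (adjusted p = 0.0697). Between the old groups, 1 gene of these lists was called with TMM factors, Mrpl28 of the mitochondrial ribosome, at 7.28 ± 1.45 (adjusted p = 0.0417), and with total counts it was at 5.37 ± 1.30 (adjusted p = 0.146). Over all genes 0.457% were higher with TMM factors. Mrpl28 had 4.69, 4.45 and 4.93 CPM in old WT, versus 439, 27.7 and 122 CPM in old KO. With 3145167 to 5115003 gene counts per old WT library, such old WT levels stand for few counts. Whether Mrpl28, Polrmt, Tfam, Ssbp1 and Mgme1 were above background in each library is not given. The part of low counts in their differences was not tested.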

How the data were processed

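RNA was measured in 9 libraries from sorted marrow stem cells. Raw counts of reads over genes stand in 1 table that the authors deposited, made with Trim Galore 0.6.2, STAR 2.6.1d and HTSeq 0.10.0 on mm10, per the submitters' processing notes. Not given in the sources used here are the annotation, the strand setting and the treatment of multiply mapped reads. Its 5 lines that name no gene stayed out of library sizes and tests. Of 52550 identifiers, 52403 had a symbol.

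From these counts, shares, CPM and CPM per kb of exon length (GENCODE M21) were computed in Python 3.11.15. Groups were compared by 2-sided exact permutation over libraries. The gene-wise test was edgeR 4.0.16 (quasi-likelihood, TMM factors, filterByExpr, all 9 libraries), with Benjamini-Hochberg adjustment over 32582 genes at 0.05. Its code was checked on simulated counts with a fixed spread and no background reads. That check does not bear on how the libraries here should be scaled. Values are group means with SD, or log2 fold changes with SE, positive where the group named first is higher. Precision is limited by 3145167 to 74021822 gene counts per library. Intervals are Wilson at 95% and limits at 0 are 3 counts. Background is the read density over 1134 olfactory receptor genes, leaving out the densest 1%. The same replicate number did not pair libraries (correlation of deviations between -0.031 and 0.024). Nuclear copies were found by matching every window of 50 bases to all annotated transcripts, and those that shared many windows were aligned. The share of windows copied was computed with 150 bases and, as a shorter length, with 50.

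The members and gene lists were chosen with earlier results of these data known. All members may be named, and of each other list any of the 4 genes with the highest mean level. The text names a few of the latter, chosen after their values were seen, and gives counts over all of them. Values of 2 genes are not reported here. Alternatives were total gene counts, upper-quartile and median-of-ratios factors, scaling to the mitochondrial mRNAs, other filters, background removal, DESeq2 1.42.0, limma-voom 3.58.1, the 6 compared libraries alone, leaving out each library and the replicate number as a block. Restricting the composition to the 7 mRNAs of high count was added after seeing the data. These still include mt-Nd4 and mt-Co1, with 59.2% and 23.6% of their 150-base windows copied.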

Additional observations from a re-analysis of the deposited data

How the results depend on the processing

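Direction and calls of the mitochondrial genes rested on how libraries were scaled. In old WT against young WT, 14 members were called lower. The count was 0 with total gene counts (1 higher), beside 1116 of 32582 genes lower. It was 1 scaled to the mitochondrial mRNAs (1302 of 32582), 8 with no filter (6618 of 49385) and 4 at 10 CPM in 3 libraries (2769 of 10040). With background removed it was 0 (7 of 8575 genes higher and 5 lower), and with 1 library left out 5 to 12. It was 18 with DESeq2 (6447 of 29807 genes lower), 16 with limma-voom (4975 of 32582) and 12 with median-of-ratios factors (5936 of 32582). The 6 compared libraries alone gave 11 (5571 of 28649) and upper-quartile factors 10 (5771 of 32582). With the replicate number as a block (replicate block, not a pairing by design) the count was 8 (3906 of 32582). In old KO against old WT, 0 members were called higher. The count was 1 at 10 CPM in 3 libraries (285 of 10040 genes higher) and 3 with DESeq2 (2030 of 9155). In old KO against young WT, 0 were called lower. The count was 1 with median-of-ratios factors (2084 of 32582 genes lower) and 12 with DESeq2 (4479 of 29807). It was 3 with the 6 compared libraries alone (1060 of 22789) and 0 to 1 with 1 library left out. The cause of each was not tested.

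Log2 fold changes that turned in old WT against young WT were, with total counts, mt-Cytb 1.20, mt-Nd1 0.74, mt-Nd2 0.016 and mt-Rnr2 1.32. Scaled to the mitochondrial mRNAs, mt-Cytb was at 0.74, mt-Nd1 at 0.33 and mt-Rnr2 at 0.86. With background removed, mt-Cytb was at 1.74, mt-Nd1 at 1.30, mt-Nd2 at 0.52, mt-Nd6 at 0.23 and mt-Rnr2 at 1.83. Between the old groups, mt-Cytb turned to -0.40 with total counts, -0.57 scaled to the mitochondrial mRNAs and -0.29 with background removed. Against young WT, mt-Co1 in old KO turned to 0.69, 0.032 and 1.32 and mt-Cytb to 0.81, 0.17 and 1.45 under these settings, and mt-Cytb to 0.095 at 10 CPM in 3 libraries.

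As a share of all counted reads, old WT minus young WT turned to -1.74 percentage points for all 37 genes, -1.64 for mRNAs, -0.0988 for rRNAs and -0.00154 for tRNAs. Old KO minus young WT turned to -0.442, -0.409, -0.0326 and -0.000932. Old KO minus old WT turned to 0.0662 for rRNAs and 0.000604 for tRNAs. With background removed, old KO minus old WT turned to -0.541 for all 37 genes and -0.284 for mRNAs. Leaving out 1 library gave -0.280 to 0.868 for all 37 genes and -0.104 to 1.01 for mRNAs in old KO minus old WT. It gave -0.230 to 1.71 percentage points for the complex IV share in old KO minus young WT, and -0.488 to 0.00758 for the log2 ratio to nuclear OXPHOS genes in old KO minus old WT. The complex III and IV differences of old WT from the other groups kept their direction under all alternatives run.

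With 3 libraries against 3, the smallest permutation p is 0.1, so no share or ratio passes 0.05. Old WT libraries had the fewest gene counts, and as a group the highest mean background density.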
